A study of Gasterosteus aculeatus with 31 samples.

Results

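The retained peaks of the far stretch of groupXIX are sites of open brain chromatin at which males kept most of the female signal. They were chosen by measured values: peaks on groupXIX that start at 12000000 or beyond, hold at least 10 counts over all libraries, and have a mean male level of at least 0.75 of the mean female level. Levels are given as CPM, each count scaled to the library's total count off groupXIX. The rule was met by 1467 of the 1889 peaks from 12 Mb onward, by 1467 of the 4391 peaks of groupXIX, and by 1467 of the 102149 peaks of the whole table. The other 422 peaks of the stretch had a lower ratio and are called male-reduced here. Since the ratio of males to females chose the retained peaks, every value of that ratio below describes them and none is a test.

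In the threespine stickleback groupXIX is the sex chromosome, with males XY and females XX. A Y chromosome that no longer recombines with the X loses or changes sequence over evolutionary time, and stretches that stopped recombining earlier have generally diverged further. Reads of a male at such a site can come from the X alone or from the X and a Y copy that still aligns, so the count reflects both copy number and openness. ATAC-seq uses the Tn5 transposase to put sequencing adapters into accessible DNA, and peaks mark promoters, enhancers and other regulatory sites.

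The libraries came from 31 juvenile threespine stickleback (Gasterosteus aculeatus), 6 to 8 months old, 1 fish per library, whose fathers were caught in the wild. Father-reared fish (Day 10 in the labels; 8 males and 8 females) were raised by their father, and orphaned fish (Day 0; 7 males and 8 females) were hand-reared without him. All met a moving model of a sculpin, a fish predator, in an open arena before the brain was taken, and sex came from a DNA marker. The left brain side was used for 13 fish and the right side for 18, as whole tissue of mixed cell types, so fewer cells with an open site and less opening per cell cannot be told apart. Fish whose identifiers share a leading number were read as 1 family, an inference that gave 16 families, 15 of them with a brother and a sister. The study used half-siblings, and the labels do not list which families shared a parent.

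The libraries held 2857578 to 10540612 counts each (median 4424554). The median count over all retained peaks and libraries was 35, the typical depth of 1 peak in 1 fish. Sums over the retained peaks rested on 42034 to 150072 counts per fish. Reads amplified by PCR may repeat a molecule, so counting limits cover counting error only. Since no source used here names the genome build, peaks are located by start and stop as deposited, without gene, promoter or exon, and brain markers could not be checked.

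Retained peaks were close to equal in both sexes, but their ratios were more widely spread than elsewhere in the genome. The median ratio of males to females was 0.995, and the quartiles were 0.903 and 1.10. Among the 97486 peaks off groupXIX with a ratio of at least 0.75 the median was 0.989, with quartiles of 0.939 and 1.04. The cut at 0.75 left out 422 of the 1889 peaks of the stretch, which raises the median there. Off groupXIX it kept 97486 of 97758 peaks. The median level was 7.52 CPM in both sets, so the wider spread was found at an equal typical level.

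Of the retained peaks, 359 (24.5%) had a ratio from 0.75 to 0.9, 751 (51.2%) from 0.9 to 1.1, 270 (18.4%) from 1.1 to 1.25, and 87 (5.93%) of 1.25 or more. Off groupXIX the corresponding shares of peaks at or above 0.75 were 11.6%, 82.6%, 5.29% and 0.547%. Both shoulders were thus more heavily filled among the retained peaks, the male-higher side as well as the side next to the threshold. Males were above females at 703 retained peaks (47.9%), against 43.7% of peaks off groupXIX at or above 0.75 and 50.6% of those from 0 to 2 Mb of groupXIX. The median was 0.564 in the male-reduced peaks, 0.506 in the 1696 peaks from 4 to 12 Mb, and 1.00 in the 437 peaks from 0 to 2 Mb.

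**Figure D1:**
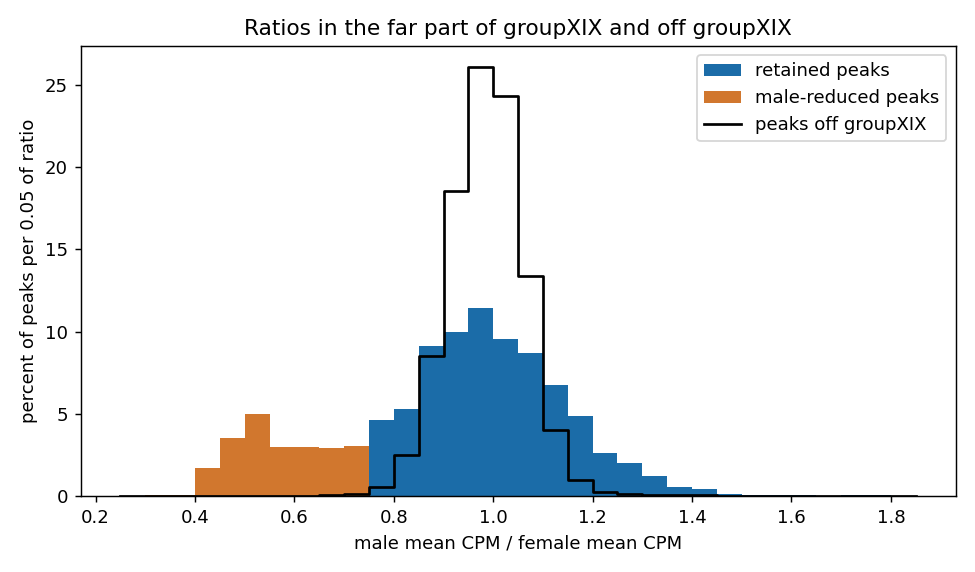
Distribution of the ratio of mean male CPM to mean female CPM in steps of 0.05 (x axis), as a percent of peaks (y axis), for the far stretch of groupXIX split at 0.75 and for peaks off groupXIX. The retained peaks, cut off at 0.75 by the rule, have a median of 0.995, near that of the peaks off groupXIX. Above the cut they spread further to both sides.

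The threshold did not fall into a gap of the distribution. Just inside it lay groupXIX 15964451 (ratio 0.7504), groupXIX 16944806 (0.751) and groupXIX 14634734 (0.751), and just outside it groupXIX 16038022 (0.749), groupXIX 18744901 (0.748) and groupXIX 13624757 (0.748). At groupXIX 16944806 males had 10.6 CPM at the lowest, 12.3 at the median and 16.9 at the highest, against 11.6, 16.6 and 27.1 CPM in females. At groupXIX 18744901, on the other side of the threshold, males had 4.73, 5.74 and 6.96 CPM against 5.36, 7.90 and 10.1 CPM in females. Males and females overlapped at both peaks.

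Stronger retained peaks leaned towards males. The 367 strongest had a median ratio of 1.07, and the other retained peaks, taken in 3 groups by rising level, had medians of 0.971, 0.977 and 0.978. Among the 147 strongest, all at 17.1 CPM or more, the median was 1.10 and 19 (12.9%) reached 1.25. Peaks off groupXIX at or above 0.75 also leaned this way with level, but less: taken in 4 groups by rising level, their medians were 0.967, 0.969, 0.983 and 1.02, and 0.0513% of their strongest 9749 reached 1.25.

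The strongest retained peak, groupXIX 13829380 to 13829780, had 57.4 CPM in the lowest, 86.1 in the median and 102 in the highest male, against 51.6, 70.1 and 88.6 CPM in females. Its means were 83.9 ± 10.6 CPM over 15 males and 70.5 ± 11.4 CPM over 16 females (SD), a ratio of 1.19. The ranges overlapped, and 1 male, orphaned replicate 10, lay well below the other males. The next 3 by level, groupXIX 14519485, groupXIX 14639003 and groupXIX 14884589, had ratios of 1.23, 1.19 and 1.16. The fifth, groupXIX 17503737, leaned the other way, with 52.3 ± 8.09 CPM in the 15 males and 57.9 ± 10.7 CPM in the 16 females (SD), a ratio of 0.905.

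At the male-higher end stood groupXIX 14092512 to 14092912, the retained peak with the highest ratio. Males had 15.0 CPM at the lowest, 18.9 at the median and 22.5 at the highest, against 7.25, 10.4 and 13.2 CPM in females. Every male was above every female, with means of 18.6 ± 2.28 CPM over 15 males and 10.4 ± 1.79 CPM over 16 females (SD), a ratio of 1.79. No other retained peak separated the sexes in this way, and over all sequences 20 of 102149 peaks (0.0196%) did so with males above females.

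At groupXIX 18078143 males ran from 8.79 to 15.3 CPM with a median of 12.6, against 5.21 to 9.94 CPM with a median of 6.67 in females, a ratio of 1.70. The sexes overlapped there in a few fish: the lowest males fell among the highest females. The ratio was 1.64 at groupXIX 18670782 (23.8 ± 4.17 CPM in males, 14.5 ± 3.07 CPM in females), 1.57 at groupXIX 14595065 (6.19 ± 1.33 against 3.95 ± 1.20 CPM) and 1.54 at groupXIX 19863026 (30.1 ± 6.39 against 19.6 ± 3.35 CPM), each SD over 15 males and 16 females. These 5 peaks were of very different strength and lay between 14092512 and 19863026 along the stretch.

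The equal end can be seen at groupXIX 15900309, where males had 12.1, 24.7 and 36.1 CPM at the lowest, median and highest, against 16.0, 25.9 and 30.2 CPM in females. The means were 24.3 ± 6.26 CPM over 15 males and 24.3 ± 4.89 CPM over 16 females (SD). A weaker peak, groupXIX 14069221, was as even, with 6.74 ± 1.60 CPM over the males and 6.74 ± 1.73 CPM over the females. The sexes overlapped fully at both. The peaks groupXIX 16593866, groupXIX 13230689 and groupXIX 15392076 were also among those nearest to a ratio of 1.

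A fit over all peaks gives the size of these differences relative to the spread between fish, though the rule used the same contrast and nothing is read from the counts. In edgeR's quasi-likelihood test of sex, adjusted over the 100808 peaks tested, 86 retained peaks were higher and 33 lower in males at an adjusted p under 0.05. Over all peaks the share called higher in males was 0.239% and the share called lower was 2.08%. These shares include the rest of groupXIX, where the 1696 peaks from 4 to 12 Mb had a median ratio of 0.506. Of the 87 retained peaks at or above 1.25, 72 were called higher, as were 14 of the 270 between 1.1 and 1.25. Of the 751 between 0.9 and 1.1, 0 were called, and the 33 called lower were all among the 359 below 0.9.

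**Figure D2:**
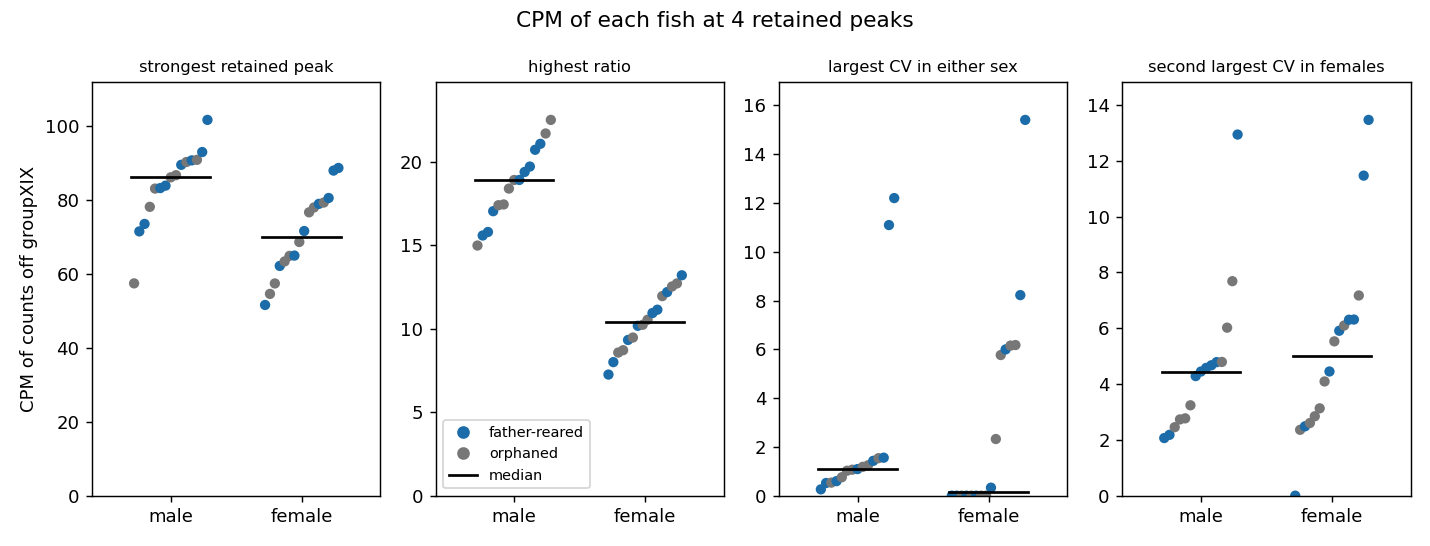
CPM of each fish (y axis, linear) at 4 retained peaks, groupXIX 13829380, groupXIX 14092512, groupXIX 16833246 and groupXIX 13191812 from left to right, with males left of females and fish in order of level. Every male exceeds every female at the peak with the highest ratio (1.79). At the peak with the largest coefficient of variation 2 males stand above 10 CPM and 13 lie below 2 CPM. There 8 females have no count, 5 lie from 5.76 to 8.22 CPM, and the highest fish is a female at 15.4 CPM.

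Retained peaks were found along the whole stretch and were not evenly mixed with the male-reduced ones. From 12 to 13 Mb 145 of 230 peaks (63.0%) were retained, from 13 to 14 Mb 245 of 277 (88.4%), from 14 to 15 Mb 175 of 204 (85.8%) and from 15 to 16 Mb 199 of 232 (85.8%). The share was lower further on: 82.9% from 16 to 17 Mb, 80.3% from 17 to 18 Mb, 71.3% from 18 to 19 Mb, 61.8% from 19 to 20 Mb and 55.6% of the last 27 peaks, which end at 20204175. The share was thus highest from 13 to 16 Mb and lower towards both ends.

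The ratio of the retained peaks shifted along the stretch too. Its median was 1.05 from 12 to 13 Mb and 1.04 from 13 to 14 Mb, 0.996 from 14 to 15 Mb, and between 0.968 and 0.993 in the windows from 15 Mb onward. Ratios of 1.25 or more were found at 20 of 145 retained peaks from 12 to 13 Mb, 18 of 245 from 13 to 14 Mb and 14 of 175 from 14 to 15 Mb, but at 2 of 199 from 15 to 16 Mb. They were more frequent again from 18 to 19 Mb (13 of 184) and from 19 to 20 Mb (7 of 110). Summed over the retained peaks of a window and set against the female mean, males had 1.07 ± 0.019 from 12 to 13 Mb, 1.06 ± 0.019 from 13 to 14 Mb, 1.04 ± 0.033 from 14 to 15 Mb and 0.999 ± 0.028 from 15 to 16 Mb (SD, n = 15 males each).

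**Figure D3:**
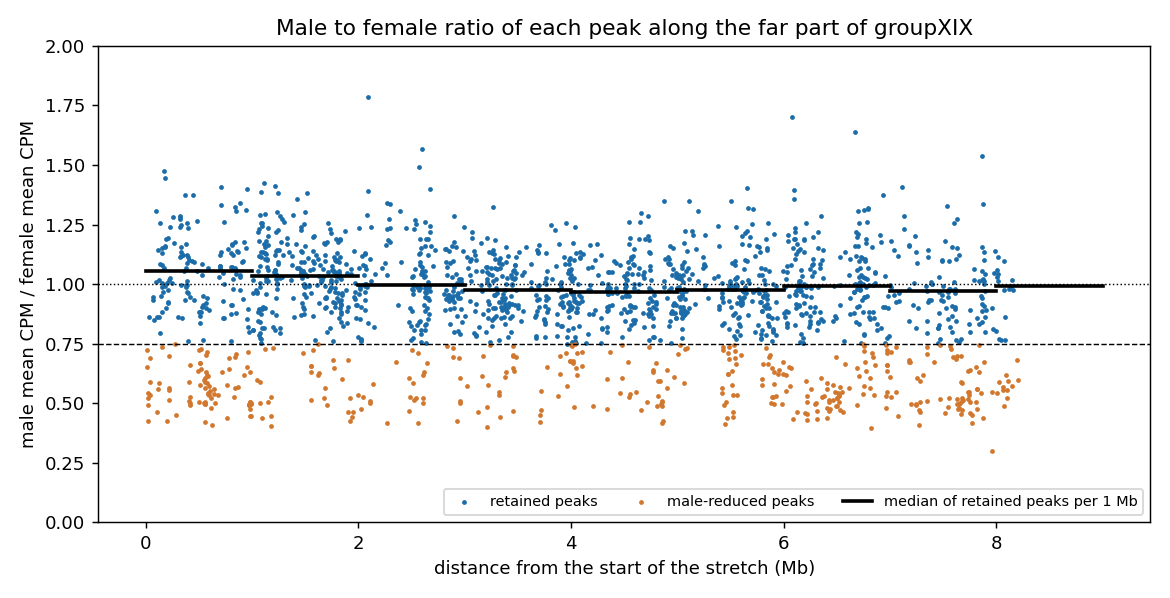
Ratio of mean male to mean female CPM of each peak (y axis, linear) against the distance of its start from 12 Mb (x axis, Mb), with the 0.75 threshold as a dashed line and the median of the retained peaks in each 1 Mb window as a black bar. The median is 1.05 in the first window and between 0.968 and 0.996 from the third window on, and male-reduced peaks are interspersed throughout.

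Neighbouring peaks tended to share their class. After a retained peak the next peak along the chromosome was retained in 84.7% of cases, and after a male-reduced peak in 53.2%, over 1888 pairs of neighbours. For neighbours under 1 kb apart (632 pairs) these shares were 88.0% and 44.3%, and for neighbours 10 kb or more apart (186 pairs) 81.0% and 63.3%. The contrast was thus sharpest at short range. The log2 ratios of neighbouring retained peaks had a Pearson correlation of 0.237 under 1 kb and 0.0317 at 10 kb or more, across peaks that share the same fish and are not independent.

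The retained peaks formed 224 unbroken runs with a median of 4 peaks, and 53 of these runs were single peaks. The longest held 60 peaks, from 13202600 to 13482164, and its median ratio was 1.07. Male-reduced peaks formed 225 runs with a median of 1 peak, 143 of them single, and the longest held 13 peaks from 19670109 to 19741698 with a median ratio of 0.534. Most runs of male-reduced peaks were thus single peaks, although most male-reduced peaks stood in longer runs.

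In form the retained peaks were like other peaks of the table. The median distance to the nearest peak was 851 bases, against 961 in male-reduced peaks and 893 off groupXIX. Most spanned the fixed width of 400 between start and stop, and 18 (1.23%) were wider, against 0.474% of the male-reduced peaks and 1.09% off groupXIX. The widest, groupXIX 17042983 to 17043782, spanned 799 and had a ratio of 0.952, with 10.1 ± 1.91 CPM in the 15 males and 10.6 ± 2.04 CPM in the 16 females (SD). The next widest, groupXIX 14625111 to 14625907, had a ratio of 1.26, at 12.1 ± 1.98 against 9.58 ± 2.42 CPM.

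Summed over all retained peaks, each male lay close to the females. Relative to the female mean the sum was 0.983 in the lowest male, 1.02 in the median and 1.06 in the highest, against 0.977, 1.00 and 1.02 in females. The means were 1.02 ± 0.019 over 15 males and 1.00 ± 0.014 over 16 females (SD), and the sexes overlapped. The male-reduced peaks of the same stretch gave 0.577 ± 0.012 in males and 1.00 ± 0.020 in females, with no overlap, as the rule would have it.

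Within families the sums of brother and sister were near each other. The brother had 0.983 of the sister's sum in the lowest family, 1.02 in the median and 1.08 in the highest, and was above the sister in 11 of 15 families. The same families gave 0.543 to 0.601 at the male-reduced peaks. Among libraries numbered 1 to 11, the sums relative to the female mean were 1.01 ± 0.011 over 6 males and 1.01 ± 0.007 over 5 females (SD). They were 1.02 ± 0.029 (n = 4) and 0.997 ± 0.009 (n = 6) in libraries 12 to 22, and 1.03 ± 0.017 and 0.992 ± 0.017 (n = 5 each) in libraries 23 to 33. The small excess of males was thus seen in the later library numbers and hardly in the first, and its relation to library preparation was not tested. The rule left out the male-reduced peaks, which raises the male sums, so an excess of males over the retained peaks is partly built in.

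**Figure D4:**
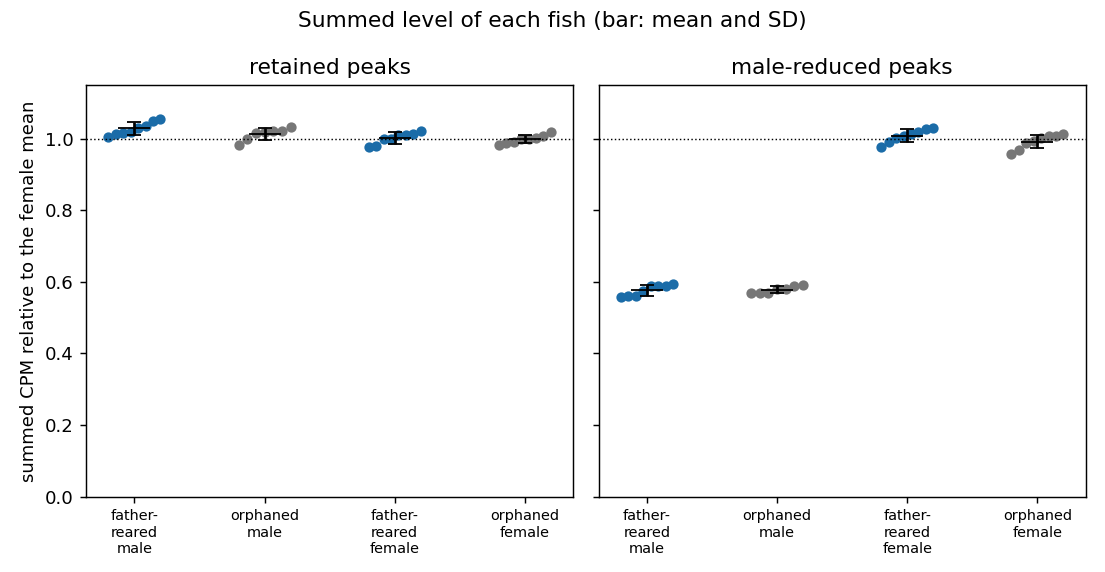
Summed CPM of each fish relative to the female mean (y axis, linear from 0) over the retained peaks (left panel) and the male-reduced peaks (right panel), with points for fish and bars for mean and SD. All groups sit near 1 at the retained peaks, from 0.977 to 1.06, while males sit near 0.577 at the male-reduced peaks.

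The ratio can be taken in father-reared and in orphaned fish separately, which share no fish and no inferred family. Because the study used half-siblings, families in different care groups may still share a parent. The median over the retained peaks was 1.01 in father-reared and 0.982 in orphaned fish. A ratio of at least 0.75 was reached by 1428 retained peaks in father-reared fish, by 1428 in orphaned fish and by 1389 in both. Since the pooled ratio that chose the peaks is made of both, a high share is built in.

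The male-higher peaks were partly the same in both care groups. A ratio of 1.25 or more was seen at 140 retained peaks in father-reared fish and at 92 in orphaned fish, with 43 in both, which is 30.7% of the 140 and 46.7% of the 92. Off groupXIX, among peaks at or above 0.75, 295 reached 1.25 in both, 17.9% of the 1649 that did so in father-reared fish and 20.2% of the 1458 in orphaned fish. The 140 had a median ratio of 1.19 in orphaned fish, and the 92 had a median of 1.24 in father-reared fish. Off groupXIX the 1649 had a median of 0.995 in orphaned fish, and the 1458 had a median of 0.979 in father-reared fish. Across the 1467 retained peaks the log2 ratios of the care groups had a Pearson correlation of 0.568, against 0.122 across the peaks off groupXIX at or above 0.75, as a description over peaks that share libraries. Both care groups enter the pooled ratio that chose the peaks, so neither the overlap nor the correlation is a test.

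**Figure D5:**
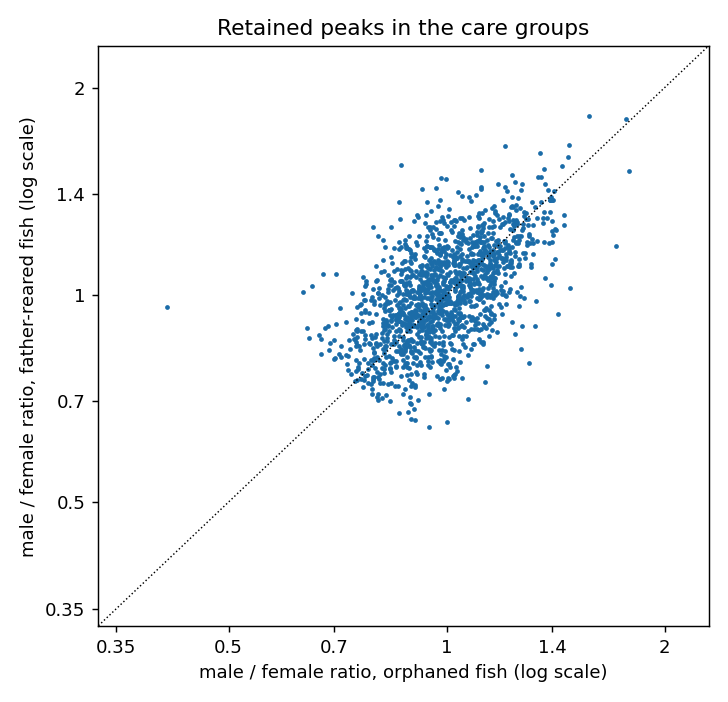
Ratio of mean male to mean female CPM of each retained peak in father-reared fish (y axis) against orphaned fish (x axis), both on log scales, with the line of equality dotted. The points rise together (Pearson 0.568 across peaks on the log2 scale), and 43 peaks reach 1.25 in both care groups.

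Retained peaks varied between fish about as much as other peaks did. The median coefficient of variation (SD divided by the mean) was 19.4% in males and 20.1% in females, against 20.6% and 20.7% off groupXIX. At male-reduced peaks it was 24.4% in males and 20.0% in females. Restricted to a mean of 5 to 10 CPM the retained peaks had 20.5% and 21.3%, the male-reduced peaks 23.9% and 19.6%, and the peaks off groupXIX 21.7% and 21.7%. The male coefficient was above the female one at 681 retained peaks (46.4%), at 74.9% of the male-reduced peaks and at 49.0% of peaks off groupXIX.

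Few retained peaks varied strongly. The coefficient passed 40% at 6 peaks in males (0.409%) and at 7 in females (0.477%), against 2.73% and 2.82% of peaks off groupXIX. The peaks off groupXIX include weaker ones, down to 0.118 CPM against 1.83 CPM among the retained peaks. At a mean of 5 to 10 CPM the shares were 0.0973% in each sex (1 peak of 1028), against 0.637% in each sex off groupXIX. The peaks of groupXIX from 4 to 12 Mb had 1.66% in males and 0.0923% in females at that level. The low share in females was thus not particular to the retained peaks. A count of 0 in any fish was found at 2 retained peaks (0.136%), against 1.18% of peaks off groupXIX. At 5 to 10 CPM it was found at 0 retained peaks and at 0 peaks from 4 to 12 Mb, against 0.0776% of peaks off groupXIX. The likeness of brother and sister was compared with that of fish from different inferred families, which may include half-siblings. The mean correlation of their deviations from the mean of their sex and care group, on the log2 scale with a pseudocount of 0.5, was 0.0349 over 15 sibling pairs, against −0.00484 over 105 pairs from different families, and 8 of the 15 were positive. It was 0.112 at the male-reduced peaks and 0.0762 off groupXIX.

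The peak that varied most, groupXIX 16833246 to 16833646, was spread over very different levels. In males 2 fish stood at 11.1 and 12.2 CPM and the other 13 between 0.259 and 1.56 CPM, or 1 to 9 counts. In females 8 of 16 had 0 counts, which allows a level of up to 0.544 to 1.04 CPM depending on the library (3 counts; counting error only), 5 lay between 5.76 and 8.22 CPM, 1 reached 15.4 CPM, and the remaining pair stood at 0.328 and 2.32 CPM. No male was at 0 and 8 females were, while the ranges of the sexes overlapped.

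The highest female, father-reared replicate 2, and the highest male, father-reared replicate 1, were sister and brother. The other high male, father-reared replicate 11, had a sister at 0.328 CPM at groupXIX 16833246. The means there were 2.41 ± 3.78 CPM over 15 males and 3.15 ± 4.45 CPM over 16 females (SD), a ratio of 0.764, with medians of 1.09 CPM in males and 0.164 CPM in females. The female median lay below what 0 counts allow, so no ratio of medians is given.

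The second most variable in females, groupXIX 13191812 to 13192212, had 2.06, 4.45 and 12.9 CPM at the lowest, median and highest in males, against 0, 4.99 and 13.5 CPM in females. Both the brother and the sister of 1 father-reared family were high, at 12.9 and 11.5 CPM at groupXIX 13191812, while the highest female had a brother at 4.58 CPM. At groupXIX 19743095 males had 0.818, 1.25 and 5.42 CPM against 0.569, 2.63 and 2.99 CPM in females. The highest male there was father-reared replicate 11, which was also high at groupXIX 16833246. The peaks groupXIX 15167996, groupXIX 20083786 and groupXIX 12964110, also among the most variable in 1 sex or both, had coefficients of 47.2%, 46.8% and 35.01% in males and 44.4%, 35.5% and 48.3% in females.

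The care comparison asked whether having been raised by the father left a difference in accessibility, and this contrast was not used to choose the peaks. No retained peak passed the test between father-reared and orphaned fish. All 1467 passed the filter on low counts, and in edgeR's quasi-likelihood test, adjusted over all 100808 peaks tested, 0 were called, as in the whole table (0.0%). The smallest adjusted p was 0.686. At an unadjusted p under 0.05 there were 101 retained peaks (6.88%), against 7.24% of all peaks tested, and DESeq2 gave 105 at that level with 0 called. Without father-reared replicate 4 the edgeR count was 160, with 0 called and a smallest edgeR adjusted p of 0.386. For DESeq2 and for fits without a fish, here and below, the share over all peaks was not counted. Whether the whole table changed alike is therefore not known.

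Of these 101, 53 were higher in father-reared fish, where 3.59% of all peaks tested were, and 48 lower, where 3.66% of all were. The median log2 difference was 0.01 over the retained peaks and −0.00 over all peaks tested. The 95% interval of the difference lay within 1.5-fold in either direction at 1459 retained peaks (99.5%), against 98.6% of all peaks, so larger differences were outside the interval at nearly every one of them. Fish were taken as independent although brothers and sisters shared their care, so these intervals may be too narrow.

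The lowest unadjusted p for care belonged to groupXIX 14584105 to 14584505. Father-reared fish had 4.10, 5.25 and 8.51 CPM at the lowest, median and highest, against 5.52, 7.08 and 9.74 CPM in orphaned fish. The care groups overlapped in part, and father-reared fish held the lowest levels in both sexes. The means were 5.50 ± 1.10 CPM in father-reared fish (SD, n = 16) and 7.23 ± 1.04 CPM in orphaned fish (SD, n = 15), a log2 difference of −0.34 (SE 0.10) that did not pass (edgeR adjusted p = 0.686).

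At groupXIX 14673551 father-reared fish had 19.5, 28.0 and 36.2 CPM at the lowest, median and highest, against 18.0, 22.9 and 30.1 CPM in orphaned fish (log2 difference 0.29, SE 0.09). The groups overlapped over most of their range. The other peaks with the lowest p were groupXIX 14952933 (log2 difference 0.31), groupXIX 14621272 (−0.28) and groupXIX 14017818 (0.28), all with an edgeR adjusted p of 0.686. The direction was thus mixed. All 5 lie between 14 and 15 Mb, seen after their values were known, where 17 of 175 retained peaks (9.71%) had an unadjusted p under 0.05, 8 higher and 9 lower in father-reared fish. In the other windows that share was 4.50% to 13.3%, the highest from the last 15 peaks.

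Within males no retained peak passed for care (edgeR, 0 called, smallest adjusted p 0.922), as in the whole table (0.0%). At an unadjusted p under 0.05 there were 90 (6.13%), against 5.31% of all peaks, and DESeq2 gave 92. Of the 90, 58 were higher and 32 lower in father-reared males, where all peaks tested gave 2488 higher and 2864 lower. The 95% interval lay within 1.5-fold at 89.2% of the retained peaks. The lowest p was at groupXIX 14107250, with 6.97, 8.49 and 9.08 CPM in father-reared males (lowest, median, highest) against 3.98, 6.02 and 7.30 CPM in orphaned males. The groups overlapped slightly, and the log2 difference was 0.50 (SE 0.14, edgeR adjusted p = 0.922). At groupXIX 17484678 and groupXIX 12701672 father-reared males were lower, by log2 differences of −0.53 and −0.47, which did not pass.

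Within females the result was the same: edgeR called 0 retained peaks, with a smallest adjusted p of 0.919, and 0.0% of the whole table. At an unadjusted p under 0.05 there were 59 (4.02%), against 4.63% of all peaks, and DESeq2 gave 58. Of the 59, 22 were higher and 37 lower in father-reared females, where all peaks tested gave 2231 higher and 2436 lower. The 95% interval lay within 1.5-fold at 94.1% of the retained peaks. At groupXIX 17067459 father-reared females had 5.61, 6.83 and 10.4 CPM at the lowest, median and highest, against 7.96, 10.1 and 11.4 CPM in orphaned females (log2 difference −0.38, SE 0.12, edgeR adjusted p = 0.919). The groups overlapped, with most father-reared females below all orphaned ones. The log2 differences were −0.40 at groupXIX 12200317 and 0.38 at groupXIX 14952933, which did not pass.

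The difference between the sexes in the care effect was tested as an interaction. It called 0 retained peaks and 0.0% of all peaks in edgeR, with an adjusted p of 1.00 throughout the retained peaks. At an unadjusted p under 0.05 there were 55 (3.75%), against 3.49% of all peaks, and DESeq2 gave 51. The 95% interval lay within 1.5-fold at 58.7% of the retained peaks and within 2-fold at 98.5%, so the interaction was measured less sharply than care itself.

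At groupXIX 14107250, the peak with the lowest p in males, females showed no such order: 4.76, 6.15 and 8.20 CPM in father-reared against 5.58, 6.80 and 8.72 CPM in orphaned females at the lowest, median and highest. Its interaction was 0.65 on the log2 scale (SE 0.19) and did not pass. The interaction was −0.74 at groupXIX 15266645 and −0.68 at groupXIX 14998748, and neither passed.

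Left and right brain sides were also compared, in a fit with sex and care. In edgeR 0 retained peaks were called, with a smallest adjusted p of 0.989, and 0.0% of all peaks. At an unadjusted p under 0.05 there were 56 (3.82%), against 4.06% of all peaks, and DESeq2 gave 59. The lowest p was at groupXIX 18532868, with 7.11, 9.04 and 12.3 CPM on the left (lowest, median, highest; n = 13) against 4.53, 6.91 and 11.7 CPM on the right (n = 18). The sides overlapped, and the log2 difference, left over right, was 0.34 (SE 0.11, edgeR adjusted p = 0.989). It was 0.32 at groupXIX 15771051 and 0.48 at groupXIX 15167996, which was also among the most variable retained peaks, and neither passed. The 95% interval lay within 1.5-fold at 99.5% of the retained peaks.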

How the data were processed

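The authors deposited raw counts: whole numbers of reads for each of 102149 peaks in each of 31 libraries, without scaling. Tools named in the submitters' processing notes, with no roles given, are DiffBind 3.14.0, MACS2 2.2.5, Picard 2.10.1, SAMtools 1.9, Bowtie2 2.3.5.1 and FastQC 0.11.8. They do not state the build, the handling of duplicates, any shift of reads for the transposase, or what became of reads that align to both X and Y.

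Ratios and CPM were computed here on library totals off groupXIX, so that the difference in X copies did not enter the scale. For the tests, filterByExpr (minimum count 10, groups of care and sex) kept 100808 peaks. After TMM scaling these were fitted in edgeR 4.0.16 under R 4.3.3 with quasi-likelihood F tests. The threshold was a Benjamini-Hochberg adjusted p under 0.05 over all peaks tested. The model for care held sex as a term, that for side held sex and care, and the model for care within a sex and for the interaction held 4 group means. Log2 differences are father-reared over orphaned and left over right. The fit for care over all fish was tried on simulated counts with independent fish, and the other comparisons were not simulated. Replicate numbers name fish and pair none, and siblings may be alike, which would make p-values too small. Alternatives were DESeq2 1.42.0, limma 3.58.1 with family as a random replicate block, other scalings, filters, thresholds, covariates and membership rules, and each library left out.

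Peaks named are those with the highest mean CPM, the highest ratios, the ratios nearest to 1 and to 0.75, the lowest p, the largest coefficients of variation and the largest widths. The retained peaks, the lists and this rule were chosen with earlier results of these data known. Sequences are not analysed here, as no genome of the deposited build was used.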

Additional observations from a re-analysis of the deposited data

Results flagged for a closer look

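The summed level of the retained peaks was examined within each group of care and sex, of 7 or 8 fish. So was the CPM of the peaks named for the lowest p for care in males, care in females or the interaction. Of these 36 sets of values, 2 held a fish that stood apart from its group, where chance gives about 1 in 20. The other named peaks were not examined in this way. At groupXIX 12200317, orphaned replicate 10 had 10.07 CPM, against a next highest value of 7.89 and a median of 7.68 CPM in the 7 orphaned males. At groupXIX 14998748, father-reared replicate 5 had 9.831 CPM, against a next highest value of 6.49 and a median of 4.83 CPM in the 8 father-reared males. Neither peak passed any test of care.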

How the results depend on the processing

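No retained peak was called for care over all fish, care in males, care in females or the interaction under any of 10 alternatives, or for side under any of 9; the lowest edgeR, limma or DESeq2 adjusted p over the retained peaks was 0.582 to 0.749 for care over all fish. With family as a random replicate block (limma), 0 were called in every comparison. The consensus correlation of siblings, estimated over all peaks tested and not the retained peaks alone, was 0.0386 to 0.042. Leaving out each of the 31 libraries gave 0 calls for care over all fish in edgeR. Retained peaks at an unadjusted p under 0.05 numbered 69 without father-reared replicate 16 and 160 without father-reared replicate 4 (lowest edgeR adjusted p 0.386). With all fish they numbered 101, and the share over all peaks was not counted without a fish. The retained peaks numbered 1525 with a threshold of 0.70, 1380 with 0.80, 1322 from 13 Mb, 1467 with at least 100 counts, 1480 with TMM scaling, 1477 with groupXIX kept in the totals, 1452 by medians over fish, 1456 in father-reared and 1449 in orphaned fish alone, and 1449 to 1471 with a library left out. With a library left out, their median ratio was 0.988 to 1.00 and their summed level in males over females 1.02 to 1.03. Of 1044 ratios of named peaks under the alternatives 1043 moved by less than the spread between fish. Most of these alternatives left out 1 fish, which can move a mean by only a small part of that spread. The count was thus largely fixed in advance. The exception was groupXIX 16833246 by medians, where the female median lay at the counting floor. All 322 log2 differences of named peaks kept their direction and stayed short of the threshold. These peaks were picked for the lowest p in the same fish, so a kept direction was largely built in. The median count over all retained peaks and libraries was 35.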
